A study of Mus musculus with 9 samples.

Results

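The genes described here are 7 markers of striatal projection neurons, Drd2, Adora2a, Penk, Tac1, Ppp1r1b, Rgs9 and Pde10a, measured in mouse hippocampus. They were chosen by their symbols and by their levels over the 9 arrays of the series, where a high value on CRL replicate 3 had been seen, so their levels on that array are given as a description with no test. Their symbols matched 11 probes, of which 10 passed the filter on dim probes, out of 31093 gene names and 39429 probes on the array. Each gene is given by its brightest kept probe, with the other probes where they differed.

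RNA came from the hippocampus of male C57BL/6J mice aged 9 months, with 3 IF1-KO mice (KO), 3 control mice (CRL) and 3 IF1-TG mice (TG), 1 mouse per one-colour array. In KO mice, exon 3 of the IF1 gene (Atpif1), which encodes the inhibitor of the mitochondrial ATP synthase, was deleted by a Cre driven by the Camk2a promoter, which is active in excitatory neurons of the forebrain. In TG mice, human IF1 was expressed from a tetO transgene under a tTA driven by the same promoter. Which of the floxed, Cre or tTA alleles the CRL mice of the arrays carried is not given in the sources used here. Both drivers act in neurons, so the other cells of the hippocampus keep the Atpif1 they had, and the KO line goes back to C57BL/6N cells. Levels are log2 intensities relative to the 75th percentile of each array, so that 0 is the level of that percentile, and levels of different probes cannot be set against each other. The 3 mice of each genotype are the replicates.

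Between 67.4% and 75.6% of spots per array were well above background, and the highest share was that of CRL replicate 3. This array lay on the same slide as KO replicates 2 and 3, and TG replicates 1 and 2 lay on a slide with no other genotype. Atpif1 was lower on the arrays labelled KO replicate 2 (5.20) and KO replicate 3 (5.53) than on the 3 CRL arrays (6.19 to 6.34), but not on the array labelled KO replicate 1 (6.43), so calls and member medians with KO are also given without that array. The TG arrays, whose transgene is human, had 6.38 to 6.51 on this mouse probe. Of 16 genes that mark hippocampal subfields, 15 were well above background on all 9 arrays, among them Prox1 and C1ql2 of dentate granule cells and Wfs1 of CA1 neurons.

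Striatal projection neurons are the main output cells of the striatum, inhibitory neurons that receive dopamine. One class, of the direct pathway, expresses the dopamine receptor D1 and makes substance P and dynorphin. The other, of the indirect pathway, expresses the dopamine receptor D2 and the adenosine receptor encoded by Adora2a and makes enkephalin. Both classes are rich in DARPP-32, RGS9 and phosphodiesterase 10A, which act on the cAMP and G protein signals set off by these receptors. Some of these genes are not limited to the striatum, since hippocampal interneurons and granule cells can express Penk, and interneurons Tac1. In RNA from whole tissue, fewer cells of a type and less RNA per cell cannot be told apart.

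Promoter sequences of RefSeq (build GRCm38.p6) were at hand for 4 of the 7 genes. The 250 bases before the start are shown for 3 of them that were highest on the same array, to set side by side a receptor of the indirect pathway, a peptide of the direct pathway and a signaling protein of both. They lie at chr9:49340153-49340402 (Drd2, plus strand), chr6:7554811-7555060 (Tac1, plus strand) and chr11:109298182-109298431 (Rgs9, minus strand). Capitals mark the GC box GGGCGG, the E-box CACGTG, the core of the cAMP response element TGACG and the TATA box TATAAA, each searched on both strands.
Drd2: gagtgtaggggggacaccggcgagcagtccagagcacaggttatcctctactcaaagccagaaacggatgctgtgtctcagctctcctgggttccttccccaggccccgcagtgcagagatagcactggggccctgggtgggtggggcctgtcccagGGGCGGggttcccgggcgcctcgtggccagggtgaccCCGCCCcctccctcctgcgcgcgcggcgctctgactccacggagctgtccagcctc
Tac1: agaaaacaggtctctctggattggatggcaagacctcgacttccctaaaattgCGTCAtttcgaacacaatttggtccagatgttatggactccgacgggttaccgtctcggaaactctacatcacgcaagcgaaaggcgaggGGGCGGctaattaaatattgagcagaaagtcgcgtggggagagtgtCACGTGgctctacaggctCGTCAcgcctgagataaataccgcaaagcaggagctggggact
Rgs9: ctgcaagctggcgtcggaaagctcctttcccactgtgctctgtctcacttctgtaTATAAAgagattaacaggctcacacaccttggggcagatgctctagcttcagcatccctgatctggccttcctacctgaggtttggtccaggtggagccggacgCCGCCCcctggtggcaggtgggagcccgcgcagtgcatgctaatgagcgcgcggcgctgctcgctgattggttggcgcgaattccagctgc
The Drd2 window held 2 GC boxes and none of the other motifs. The Tac1 window held 1 GC box, 1 E-box and 2 TGACG motifs, and the Rgs9 window 1 GC box and 1 TATA box. Of 32851 promoter windows of this length, 32.7% held a GC box, 6.02% an E-box, 17.8% a TGACG and 12.4% a TATA box. The GC content was 68.8% for Drd2, 51.2% for Tac1 and 59.6% for Rgs9. The GC box was the motif these 3 windows shared, and a match of letters is a description, not a binding site.

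Both receptors, both peptide precursors and Rgs9 were highest on CRL replicate 3, and Ppp1r1b and Pde10a were not. Over all genes measured on the 9 arrays, 5.83% were highest on CRL replicate 3 (1262 of 21660), and 0.499% were at least 1 log2 unit above the mean of the other 8 arrays (108 genes). Adora2a, Penk and Tac1 passed that unit. The median member lay 0.93 above the mean of the other arrays. Of the genes highest on this array, Rgs9 (0.87) and Drd2 (0.93) had the smallest rises, and the others stood at 0.32 (Ppp1r1b) and 0.13 (Pde10a).

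Adora2a encodes an adenosine receptor that is a defining marker of the indirect pathway. Its probe lies on chromosome 10 of mm9, from 74797461 to 74797520. The level was -3.95, -4.09 and -4.26 on KO replicates 1 to 3, -3.35, -3.61 and -1.87 on CRL replicates 1 to 3, and -4.10, -4.13 and -3.48 on TG replicates 1 to 3. CRL replicate 3 stood 1.47 above the next array, CRL replicate 1, and 2.00 (3.99-fold) above the mean of the other 8, whose SD was 0.34. The 3 CRL values were all above the 3 KO values, with or without replicate 3, while TG replicate 3 lay between CRL replicates 1 and 2.

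Drd2 encodes the dopamine D2 receptor, and its probe lies on chromosome 9 from 49215047 to 49215106. The KO arrays had -4.84, -4.77 and -5.05, the CRL arrays -4.80, -4.99 and -3.99, and the TG arrays -5.33, -4.51 and -5.03. CRL replicate 3 was highest and TG replicate 2 second, 0.52 below it. Without CRL replicate 3 the CRL values fell among those of the KO arrays. The rise over the other 8 arrays was 1.90-fold, or 0.93, against an SD of 0.24.

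Penk encodes preproenkephalin, the precursor of the enkephalins, with a probe on chromosome 4 from 4060724 to 4060783. Its levels were 2.64, 2.16 and 1.91 on KO arrays, 2.79, 1.34 and 3.30 on CRL arrays, and 1.10, 1.69 and 2.49 on TG arrays. CRL held both the highest array and one of the lowest. Of the 7 genes, Penk had the widest spread among the other 8 arrays (SD 0.62), and its value on CRL replicate 3 was 0.51 above the next array, CRL replicate 1, and 2.45-fold above their mean.

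Tac1 encodes preprotachykinin-1, the precursor of substance P and neurokinin A, and its probe lies on chromosome 6 from 7512893 to 7512952. The KO arrays had 0.38, 0.66 and 0.38, the CRL arrays 0.52, 0.15 and 1.66, and the TG arrays 0.092, 0.51 and 0.59. The other 8 arrays were close together (SD 0.20), and CRL replicate 3 was 1.00 above the next, KO replicate 2. It was 2.38-fold above their mean.

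Rgs9 encodes a regulator that shortens G protein signals, with a striatal and a retinal form. Its brightest probe lies on chromosome 11 from 109086675 to 109086734. Levels were 1.11, 1.19 and 1.08 on the KO arrays, 1.22, 0.88 and 1.98 on the CRL arrays, and 1.40, 0.39 and 1.62 on the TG arrays. TG replicate 3 came within 0.37 of CRL replicate 3, and the TG arrays spread over the whole range below it. A second probe that overlaps this one gave 2.06 on CRL replicate 3, which was 1.09 above the others. The third probe, for another transcript, ranged from -4.94 to -4.42 and was 0.23 lower on CRL replicate 3 than the mean of the others, so the 3 probes of Rgs9 did not move together.

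Ppp1r1b encodes DARPP-32, which inhibits protein phosphatase 1 when protein kinase A has phosphorylated it. Its probe lies on chromosome 11 from 98218965 to 98219024. The KO arrays had 2.07, 2.26 and 2.45, the CRL arrays 2.21, 3.01 and 2.79, and the TG arrays 3.20, 2.28 and 2.28. TG replicate 1 and CRL replicate 2 were above CRL replicate 3, which was the third highest. Those 2 arrays were also the lowest for Penk.

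Pde10a encodes a phosphodiesterase that breaks down cAMP and cGMP. Its brightest probe lies on chromosome 17 from 9174995 to 9175054, with levels of -0.071, 0.16 and 0.43 on KO arrays, 0.17, -0.011 and 0.34 on CRL arrays, and -0.25, 0.17 and 1.15 on TG arrays. TG replicate 3 stood 0.73 above the next array, KO replicate 3, and CRL replicate 3 came after both. The second kept probe was also highest on TG replicate 3 (-1.39). The third lay at background on all 9 arrays.

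**Figure D1:**
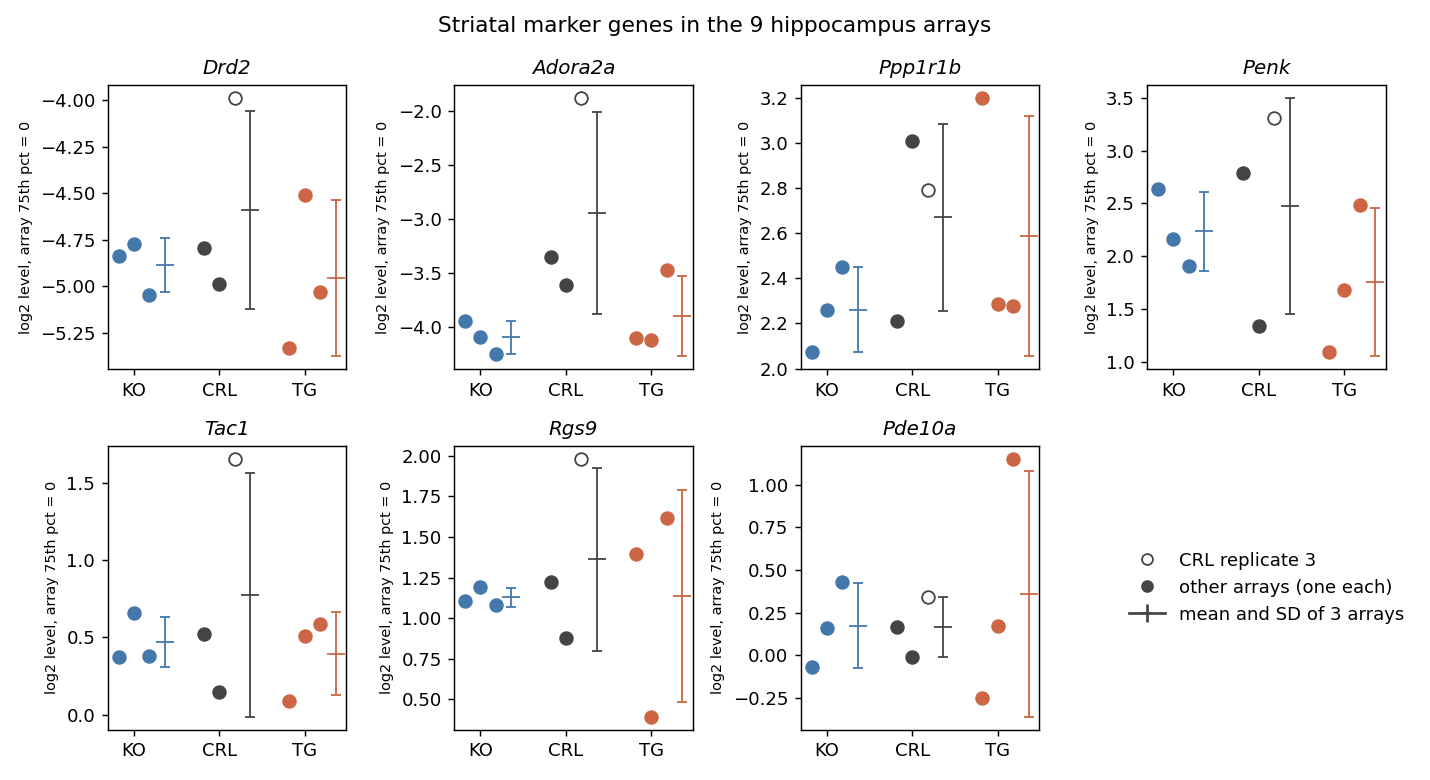
Log2 level (array 75th percentile = 0) of the brightest probe of each member on the 9 arrays, by genotype, with the mean and SD of 3 arrays. CRL replicate 3 (open circle) is the highest point for Drd2, Adora2a, Penk, Tac1 and Rgs9, while Ppp1r1b is highest on TG replicate 1 and Pde10a on TG replicate 3.

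The correlations among members, over 9 arrays that share the slides and the scaling, had a lower median without that array. They are descriptions, since the set was chosen with them in view. The 21 pairs of members had a median Pearson r of 0.35, from -0.52 to 0.89, and 17 were above 0. Without CRL replicate 3 the median was 0.14, from -0.88 to 0.72, and 15 were above 0. Drd2 and Adora2a, which mark the same neurons, went from 0.73 (Spearman rho 0.38) to 0.0068 (rho 0.12). Drd2 and Rgs9 went from 0.21 (rho 0) to -0.68 (rho -0.43). Without the 2 arrays farthest from the median of Drd2, these pairs had r of -0.27 and -0.68. Penk and Tac1 stayed above 0, at 0.78 (rho 0.72) with and 0.72 (rho 0.60) without the array. Without the 2 arrays farthest from the median of Penk, their r was 0.54. Ppp1r1b and Penk ran the other way, with r of -0.52 (rho -0.60) over 9 arrays and -0.88 (rho -0.93) over 8, but r was 0.38 without the 2 arrays farthest from the median of Ppp1r1b, so the relation rests on those arrays.

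The genes whose brightest probe most resembled the mean profile of the members over the 9 arrays were Serpina9 (r = 0.98), an unnamed probe, A_55_P2136970 (0.96), Slc18a3 (0.95), Snn (0.94), Baiap3 (0.88), Drd1 (0.87), BB284606 (0.86), Txndc5 (0.85), Cartpt (0.84) and Rarb (0.84). Several of these act in the striatum. Drd1 encodes the dopamine receptor of the direct pathway, Slc18a3 the vesicular acetylcholine transporter of cholinergic neurons, Rarb a retinoic acid receptor and Cartpt the CART peptide. They differed in size, for CRL replicate 3 lay 2.57 above the mean of the other arrays for Serpina9, 1.56 for Cartpt, 1.17 for Drd1 and for Slc18a3, 0.64 for Rarb, and only 0.11 for Snn. Over the 8 arrays without CRL replicate 3 the 5 closest genes were 4933412E12Rik (0.99), Htr3a (0.97), Ccdc93 (0.97), Nhlh1 (0.97) and Tas2r140 (0.95). None of these 5 was among the 10, and of the 10 Drd1 had r of 0.22, Rarb 0.17 and Cartpt 0.10 there. The others kept r of 0.63 (Txndc5) to 0.90 (Serpina9), with 0.77 for Slc18a3.

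Other genes of the striatum gave a partly similar picture. Of 38 such genes that are no members, 35 were kept, and 18 were highest on CRL replicate 3, beside 5.83% of all genes. The list was written with earlier results of these arrays known, and it takes in transcription factors, receptors and signaling proteins of the projection neurons. Its median rise on CRL replicate 3 was 0.41, with 30 genes above 0, while that of all genes was -0.025. Of these genes, 7 passed 1 log2 unit. The 29 detected above background on each of the 9 arrays had 14 highest on CRL replicate 3 and 24 above 0, with a median of 0.39, and 4 passed 1 log2 unit.

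The transcription factors Six3 and Foxp2 passed the filter on dim probes through the CRL arrays alone, being well above background on 6 and 5 arrays, so only their levels are given. Six3 had -2.60 on CRL replicate 3 and -3.80 on TG replicate 1, its second highest, and Foxp2 had -4.85 on CRL replicate 3 and -5.59 on KO replicate 2. Isl1, a transcription factor of direct pathway neurons, was not kept, being well above background on 2 arrays, CRL replicate 3 (-4.02) and TG replicate 2 (-5.79). At the other end of the list, Chrm4, a muscarinic receptor of direct pathway neurons, was lowest of all arrays on CRL replicate 3 (-4.66), and Ace was 0.65 below the mean of the others.

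**Figure D2:**
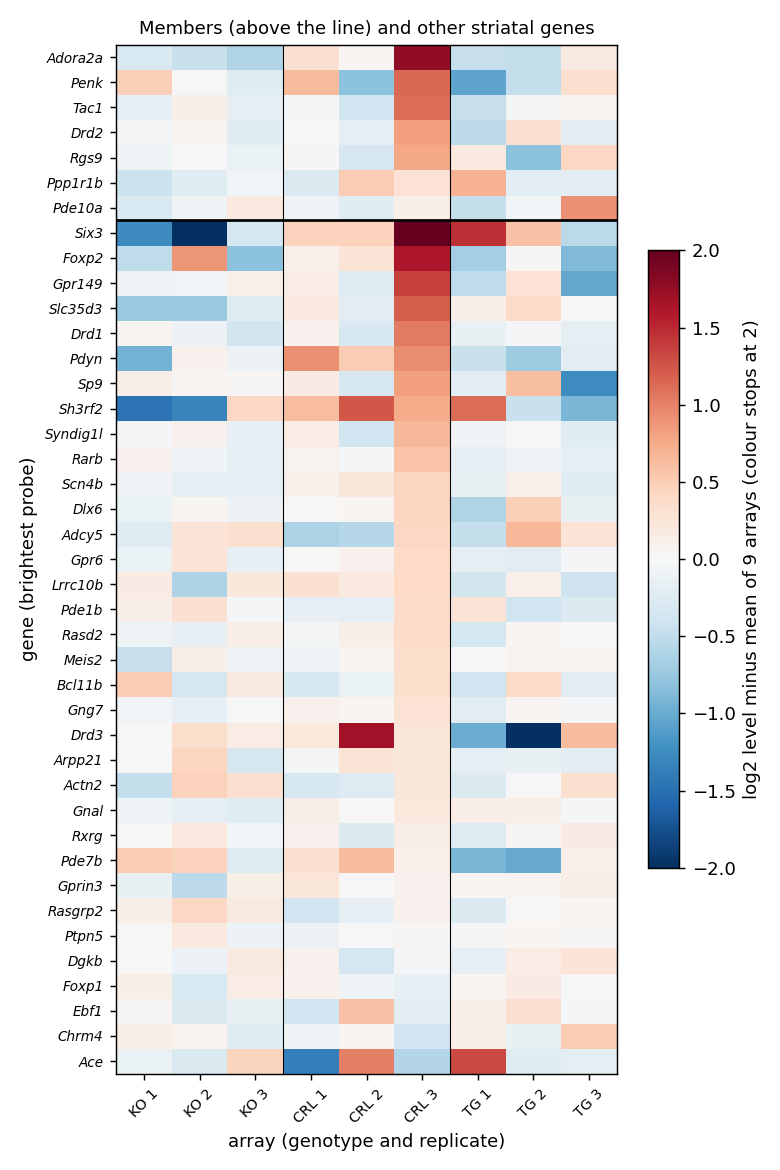
Log2 level of each gene minus its mean over the 9 arrays, for the 7 members (above the line) and other striatal genes that were kept, ordered by the rise on CRL replicate 3. Of these other genes, 6 were not well above background on every array. The CRL 3 column is red for most genes of both sets, and Foxp1, Ebf1, Chrm4 and Ace at the bottom are blue there.

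Markers of cholinergic neurons, which are interneurons in the striatum and projection cells in the nearby basal forebrain, were also high on that array. Slc5a7, the choline transporter, had -3.32 on CRL replicate 3 and -5.99 to -4.69 on the other arrays. Slc18a3 had -2.42 against -3.94 to -3.31, and Chat, which makes acetylcholine, -4.81 against -6.24 to -4.91. Lhx8, a transcription factor of cholinergic neurons, was well above background on CRL replicates 1 and 3 only, with -6.80 and -4.05, and was not kept. The whole list of 8 cholinergic and dopamine neuron genes had 7 kept, 3 of them highest on CRL replicate 3, and its summed level was 1.51 to 1.75 in CRL, 1.14 to 1.60 in KO and 0.967 to 1.60 in TG. Ddc, of dopamine neurons, was 0.20 above the mean of the others.

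Lists for other tissues did not show the same rise. The hippocampal subfield genes had a median of 0.15 on CRL replicate 3, with 10 of 16 above 0, and their summed level was 40.5 there, within the 32.1 to 46.5 of the other arrays. The 3 highest were Neurod6 (0.76), Spink8 (0.47) and Dsp (0.45). Neocortical layer genes had a median of -0.064, with Ctgf (0.37), Cplx3 (0.24) and Lamp5 (0.10) highest. Oligodendrocyte genes had 0.14, with 10 of 12 above 0, beside 9825 of 21660 of all genes. They were led by Ugt8a (0.51), Opalin (0.37) and Mag (0.37). Interneuron genes had -0.11, with 4 of 13 above 0, led by Calb2 (0.80), Gad2 (0.51) and Npy (0.29). Thalamus genes had -0.13, yet Zic1, a transcription factor, was 1.58 higher on CRL replicate 3, with Prkcd 0.80 and Synpo2 0.55. Choroid plexus genes were lower there, with a median of -1.61 and none of 12 above 0, and Otx2 (-0.26), Kl (-0.50) and Enpp2 (-0.79) nearest to the other arrays. The part of any of these tissues in the members' values was not tested.

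**Figure D3:**
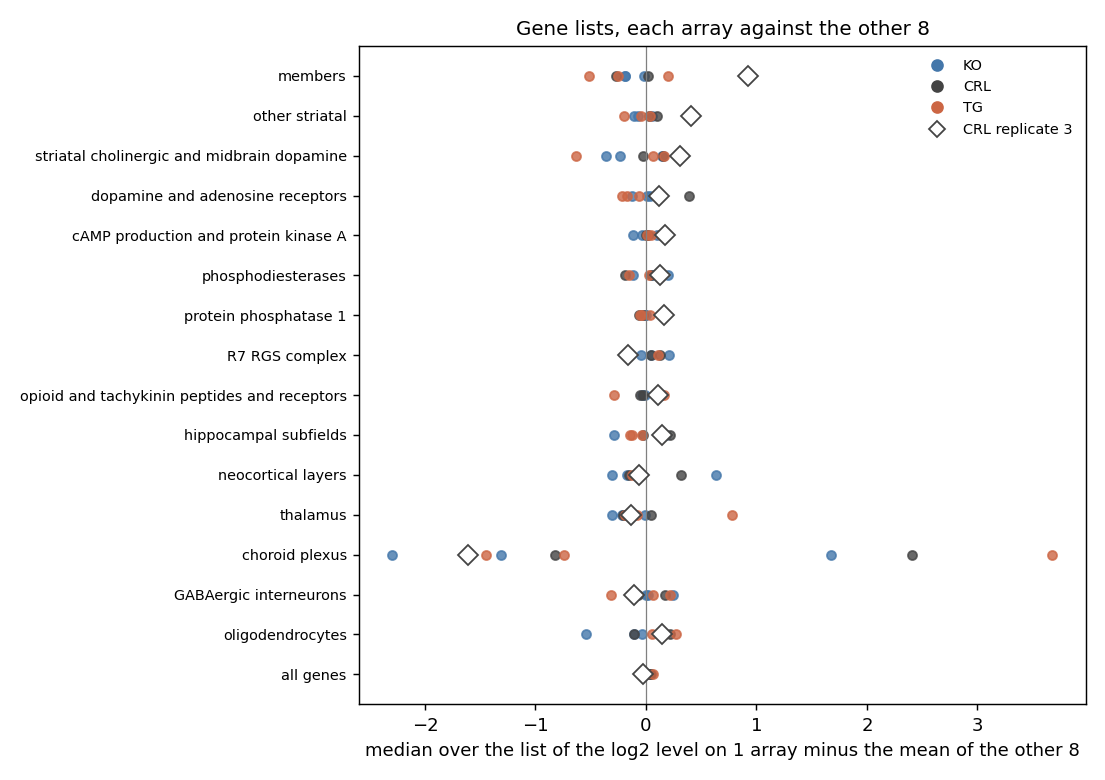
For each gene list, the median over its genes of the log2 level on 1 array minus the mean of the other 8, 1 point per array. CRL replicate 3 (open diamond) is highest of the 9 arrays for the members (0.93), the other striatal genes (0.41), the cholinergic and dopamine neuron genes (0.31), the cAMP and protein kinase A genes (0.17) and the protein phosphatase 1 genes (0.16). Thalamus genes are highest on TG replicate 2 (0.78) and neocortical layer genes on KO replicate 2 (0.64), and choroid plexus genes are high on TG replicate 1, CRL replicate 2 and KO replicate 3.

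The 2 members that were not highest on CRL replicate 3 included Ppp1r1b, whose order followed choroid plexus genes in part. All 12 choroid plexus genes were well above background on all arrays. Their summed level was 268.0 on TG replicate 1, 199.3 on CRL replicate 2 and 146.1 on KO replicate 3, and 12.0 to 27.4 on the other 6, CRL replicate 3 included (16.8). Per genotype it ran from 12.0 to 146.1 in KO, 16.8 to 199.3 in CRL and 15.1 to 268.0 in TG. Ttr, the transthyretin of choroid plexus cells, had 7.27, 6.74 and 6.44 on these 3 arrays. Ppp1r1b had 3.20, 3.01 and 2.45 there, the highest, the second and the fourth of its values. Penk had 1.10 and 1.34 on the first and second of them, its lowest values, and 1.91 on the third. The part of the choroid plexus in either gene was not tested.

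**Figure D4:**
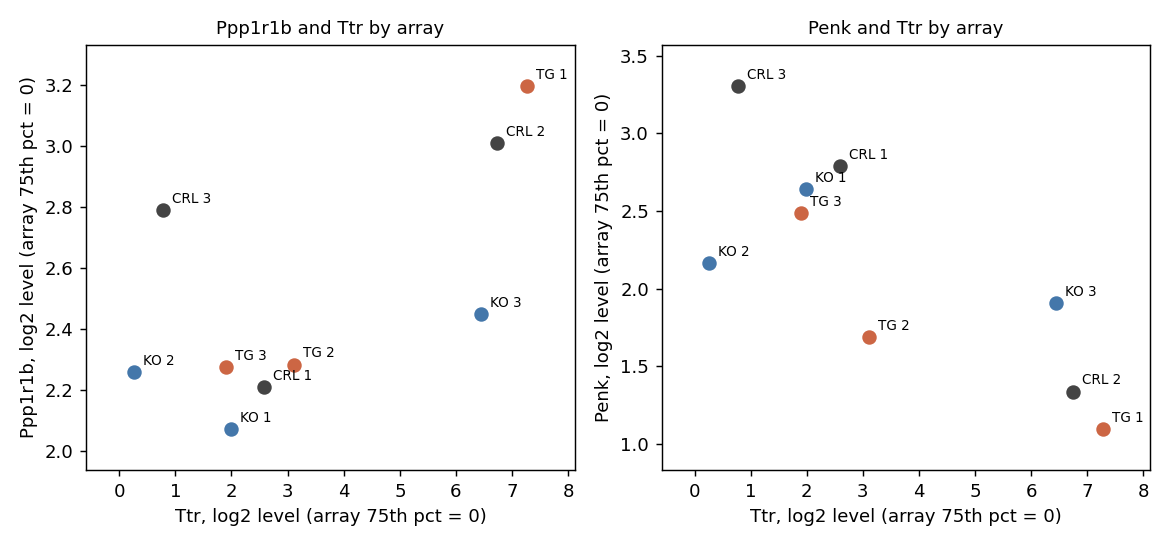
Log2 level of Ppp1r1b (left) and Penk (right) against that of the choroid plexus gene Ttr, 1 point per array, coloured by genotype. TG 1, CRL 2 and KO 3 lie to the right with Ttr above 6, where Ppp1r1b is highest and Penk lowest on TG 1 and CRL 2, while CRL 3 lies at the left with the highest Penk.

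The genotypes were then compared. A probe was called when its fold change was at least 1.5 and its unadjusted P in limma below 0.05, as the study's methods set it. Contrasts with CRL contain the array that chose the members, so their values carry no P. Between KO and CRL mice, 1.06% of 27994 probes were called (298). In limma, 718 probes had an unadjusted P below 0.05 and none an adjusted one. The largest difference of a member was that of Adora2a, -1.16 (SE 0.41) in KO on the log2 scale. Lower means in KO were found for 6 of the 7 genes, with a median of -0.30 against -0.0084 for all genes.

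Most of these differences changed sign without CRL replicate 3. Then 5 of 7 genes were higher in KO, the median was 0.076 and the range was from -0.62 to 0.17. Adora2a was still lower in KO (-0.62, SE 0.23), and Penk, Tac1, Rgs9 and Drd2 turned to 0.17, 0.14, 0.076 and 0.0062. The number of probes called over the whole array was then 1019. Without the array labelled KO replicate 1, the median was -0.32 and Adora2a -1.23, and without KO replicate 3 Adora2a was at -1.08 (SE 0.49). Leaving out CRL replicate 2 gave a median of -0.49, with Adora2a at -1.49, Penk at -0.81 and Tac1 at -0.62.

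Between TG and CRL mice, 4.47% of probes were called (1251, of which 1 had an adjusted P below 0.05). Adora2a was at -0.96 in TG (SE 0.41), and 6 of 7 genes were lower in TG, with a median of -0.37 against -0.00064 for all genes. Penk followed at -0.72 (SE 0.52), and was at -1.29 without CRL replicate 2 and -0.31 without CRL replicate 3. The member median was -0.57 without CRL replicate 2. Without CRL replicate 3 the median was -0.023, 4 of 7 genes were lower, and Adora2a was at -0.42 (SE 0.23). Without TG replicates 1 and 2 in turn, Adora2a had -0.86 and -0.84. With slide as a fixed block, in which TG rests on TG replicate 3 alone, the differences were -0.30 for Adora2a and 0.11 for Penk, with 0.41 for Rgs9 and 1.09 for Pde10a. These contrasts share the CRL arrays.

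The TG and KO means leave out CRL replicate 3, but the members were chosen by their levels on all arrays, TG and KO included. That array also enters the pooled spread, which can move tests of these genes toward no call. The values below are therefore a description, and the lack of a call does not show that the genotypes were alike. No member was called on its brightest probe with or without CRL replicate 3 in the fit. Of all probes 3.77% were called (1056, 3 of them at an adjusted P below 0.05), and none of the 10 member probes was. The smallest unadjusted P of a member was 0.29 for Ppp1r1b, which was 0.33 higher in TG (SE 0.29, adjusted P = 0.80 in limma). Without TG replicate 1, Ppp1r1b was only 0.020 higher. Penk was 0.48 lower in TG (SE 0.52, adjusted P = 0.83) and Adora2a 0.20 higher (SE 0.41, adjusted P = 0.92). The difference of Penk ranged from -0.85 to -0.15 with 1 array left out. Drd2 (-0.072), Tac1 (-0.074), Rgs9 (0.0075) and Pde10a (0.19) were within 1 SE of 0. The median difference of the members was 0.0075, beside 0.0066 for all genes, and it ranged from -0.17 to 0.28 with 1 array left out. Without the array labelled KO replicate 1, the median was -0.0026 and no member was called. With slide as a fixed block, which again leaves TG replicate 3 to stand for TG, Pde10a was 1.19 higher in TG (SE 0.24) and was called, with an unadjusted P of 0.0023 and an adjusted P of 0.48 in limma, and the member median was 0.60. In the same fit Adora2a was 1.09 higher in TG (SE 0.57, adjusted P = 0.82 in limma) and Rgs9 0.81 higher (SE 0.49, adjusted P = 0.86), neither called.

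**Figure D5:**
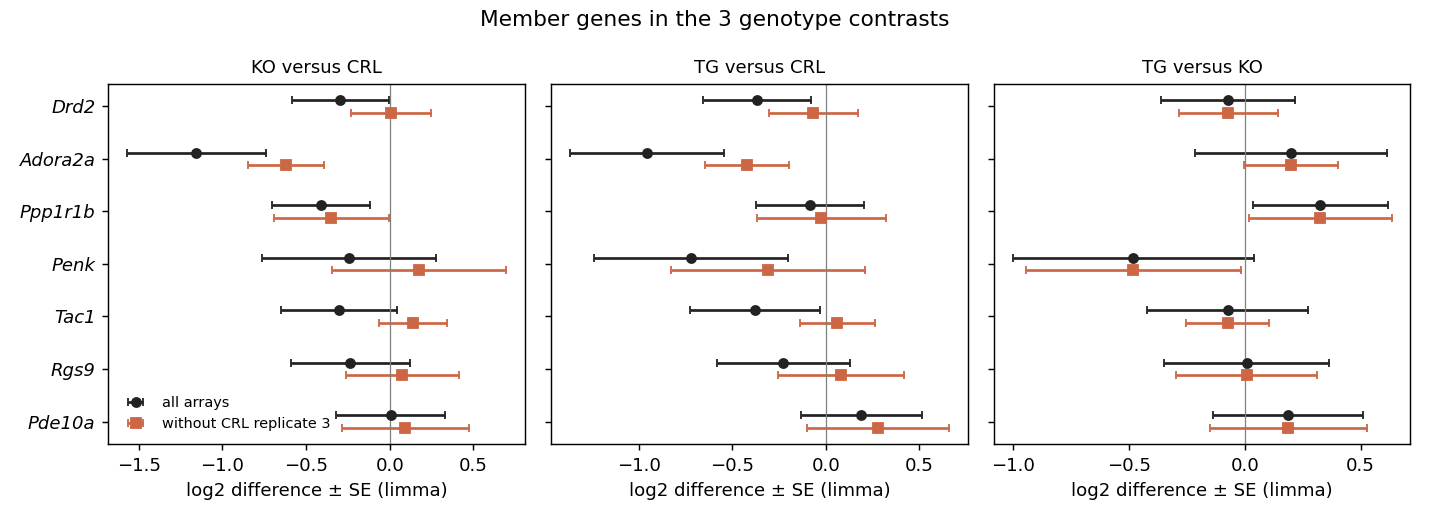
Log2 difference and SE (limma) of the 7 members in the 3 contrasts, with all arrays (circles) and without CRL replicate 3 (squares). In both contrasts with CRL the squares lie closer to 0 than the circles for Adora2a, Drd2, Tac1 and Rgs9, and between TG and KO the estimates are the same, since CRL 3 enters only the SE.

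Of all probes, 1.06% were called between KO and CRL. Among the 35 other striatal genes kept, with 52 probes, 4 were called as lower in KO and none as higher. They were Pdyn, the precursor of dynorphin (-1.11, SE 0.27), Slc35d3 (-0.97, SE 0.33), Six3 and Sh3rf2, each at an adjusted P of 1.00 in limma. Six3 and Sh3rf2 passed the filter on dim probes through the CRL arrays alone, a choice that favours a difference, and no fold is given for them. Both were well above background on 1 of 3 KO arrays. Pdyn was 1.73, 1.32 and 1.74 on the CRL arrays, with CRL replicate 1 as high as replicate 3, and -0.13, 0.90 and 0.69 on the KO arrays. Its difference was -1.04 without CRL replicate 3, while Slc35d3 fell to -0.56 and was no longer called. Without the array labelled KO replicate 1, Pdyn was at -0.80 and still called, as was Six3, while Slc35d3 (-0.88) and Sh3rf2 were not.

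Between TG and CRL mice, Pdyn (-1.25, SE 0.27, adjusted P = 0.36), Pde7b (-0.96, SE 0.33, adjusted P = 0.53) and Drd3 were called as lower. Drd3, a dopamine receptor, was not well above background on the 3 TG arrays, so no fold is given, and its call was lost in 7 of the 9 fits that left out 1 array, among them those without CRL replicates 2 and 3. The call on Pde7b was lost without CRL replicate 2 (-0.82), TG replicate 1 (-0.81) or TG replicate 2 (-0.76), and with slide as a fixed block (-0.38). Pdyn had 0.36, 0.11 and 0.59 on the TG arrays, all below the 3 CRL values. Between TG and KO mice, Six3 and a second probe of Arpp21, which encodes a cAMP-regulated phosphoprotein (0.64, SE 0.22), were called as higher and Pde7b (-0.85, SE 0.33) as lower. Six3 entered this contrast only through the CRL arrays. It was not well above background on KO replicates 1 and 2 and TG replicate 3. Without the array labelled KO replicate 1, Six3 and Pde7b (-0.72) were not called and Arpp21 (0.70) was, and without KO replicate 2 none of these 3 was. Six3 and Pde7b also lost their calls without TG replicate 1 (Pde7b -0.70) or TG replicate 2 (Pde7b -0.65), and Arpp21 without TG replicate 3 (0.55). With slide as a fixed block, the calls on Six3, Arpp21 (0.53) and Pde7b (-0.40) were also lost. The median difference of this list was -0.18 for KO against CRL, -0.24 for TG against CRL and -0.06 for TG against KO.

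Around the receptors, 7 other dopamine and adenosine receptors had 1 gene highest on CRL replicate 3, Drd1 (1.17), followed by Drd5 (0.42). Drd3 was called, as above, and no other of the 7. Of 21 genes for cAMP production and protein kinase A, all of them kept, 1 was called, on a second probe of Gnao1 (0.61, SE 0.24, TG over CRL; lost in 4 of the 9 fits without 1 array), and the list's median on CRL replicate 3 was 0.17. Gnai3 (0.58), Adcy5 (0.47) and Prkar2b (0.44) led that list. Adcy5 makes the cAMP that the receptors of Drd1 and Adora2a raise in the striatum. It was 1.96 on CRL replicate 3 and 2.20 on TG replicate 2.

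Of 10 phosphodiesterases, Pde1a was higher in TG than in CRL (0.78, SE 0.19) and than in KO (0.66, SE 0.19), and a second probe of Pde4b than in KO (1.15, SE 0.45). Between TG and KO the call on Pde1a was lost without KO replicate 2 (0.48) and with slide as a fixed block (0.59). That on Pde4b was lost without KO replicate 2 (0.74), TG replicate 1 (0.99) or TG replicate 3 (1.02) and with the slide block (0.92). Both stayed without the array labelled KO replicate 1, at 0.77 and 1.28. Pde7b was lower in TG in both contrasts, with the losses given above. On CRL replicate 3, Pde1c (0.49), Pde1b (0.43) and Pde9a (0.29) led the list. None of the 6 protein phosphatase 1 genes kept was called, and the largest rises on CRL replicate 3 were those of Ppp1r1a (0.34), Ppp1cc (0.20) and Ppp1r2 (0.16), of which the first alone had its highest value there. Of the RGS9 partners and relatives, Gpr158 was lower in TG than in CRL (-0.61, SE 0.19) and a second probe of Rgs7bp higher in TG than in KO (0.70, SE 0.25). The call on Gpr158 was lost without CRL replicate 1 or 2 and without TG replicate 1, and with slide as a fixed block (-0.29). That on Rgs7bp was lost without KO replicate 2 (0.44), without TG replicate 2 (0.58) and with the slide block (0.39), and stayed without the array labelled KO replicate 1 (0.79). The median of this list on CRL replicate 3 was -0.16, with Rgs7 (0.21), Gpr158 (0.12) and Gnb5 (0.014) leading.

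The opioid and tachykinin list had 14 of 15 genes kept. Pdyn was called as above, the carboxypeptidase Cpe (0.74, SE 0.18) and the opioid receptor Oprd1 (0.61, SE 0.23) were higher in TG than in CRL, and the nociceptin receptor Oprl1 was lower in TG than in KO (-0.72, SE 0.14, adjusted P = 0.58). Oprl1 was at -0.73 without the array labelled KO replicate 1, and its call was lost with slide as a fixed block (-0.55). That on Oprd1 was lost in 4 of the 9 fits without 1 array, those without CRL replicates 1 and 2 (0.43) and TG replicates 2 and 3. On CRL replicate 3, Pdyn (1.05) and Oprk1 (0.75) led, followed by Tacr1, the receptor of substance P, which was not well above background on TG replicate 1. Chat was lower in KO than in CRL (-1.12, SE 0.19) and than in TG (0.99 higher in TG, SE 0.19). It was -6.05, -6.17 and -6.24 on KO arrays, -5.07, -5.21 and -4.81 on CRL arrays, and -4.91, -5.56 and -5.00 on TG arrays, so the KO values did not overlap the others, and the difference from CRL was -1.01 without CRL replicate 3. Without the array labelled KO replicate 1 the differences of Chat were -1.17 and 1.04. A second probe of Ddc was lower in TG than in CRL (-0.77, SE 0.31), but the call held in 4 of the 9 fits without 1 array, and the difference was -0.40 without TG replicate 1.

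In the marker lists of other tissues, no gene was called for hippocampal subfields, neocortical layers or the choroid plexus. Lef1 (0.68, SE 0.27) and a second probe of Tcf7l2 (1.11, SE 0.39) of the thalamus list were higher in TG than in CRL, and that probe of Tcf7l2 was also higher in TG than in KO (1.34, SE 0.39). The thalamus list was highest on TG replicate 2, with a median of 0.78 above the other arrays and a summed level of 20.1 against 7.61 to 10.68 on the others. Without that array, the TG and CRL calls on Lef1 (0.67) and Tcf7l2 (0.68) were lost, and Tcf7l2 was 0.90 higher in TG than in KO and called. The part of thalamic tissue in these values was not tested. A second probe of the interneuron gene Pvalb was lower in TG than in CRL (-0.65, SE 0.27), a call that held in 2 of the 9 fits without 1 array, with -0.40 without TG replicate 2 and -0.31 with slide as a fixed block. Ermn of oligodendrocytes was higher in TG than in KO (0.96, SE 0.29). Without the array labelled KO replicate 1, Ermn was 1.05 and Tcf7l2 1.44 higher in TG than in KO, both called, and with slide as a fixed block neither was (0.76 and 0.52). No gene named from these lists had an adjusted P below 0.05 in limma.

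Over all lists without the members, 257 probes of 177 genes were tested. Of these, 1.95% were called between KO and CRL (5, beside 1.06% of all probes), 4.67% between TG and CRL (12, beside 4.47%) and 3.89% between TG and KO (10, beside 3.77%). The 5 include Six3 and Sh3rf2, and the 10 include Six3, with the limit given above. Over probes well above background on all 9 arrays, 3 of 241 list probes were called between KO and CRL (1.24%, beside 0.713% of all such probes). The shares of these probes were 4.56% beside 3.63% between TG and CRL, and 4.15% beside 2.98% between TG and KO. With each array left out in turn, 3, 3 and 4 of the 5, 12 and 10 calls were made throughout. These were Pdyn, Chat and Six3 between KO and CRL, the last with that limit, Pdyn, Cpe and Pde1a between TG and CRL, and Chat, Oprl1, Ermn and the Tcf7l2 probe between TG and KO. Between TG and CRL, the calls on Ddc (-0.74), Gnao1 (0.43), Lef1 (0.53), Tcf7l2 (0.84) and Drd3 were lost without CRL replicate 3. Of the 12 calls, 7 were lost without TG replicate 1, 6 without TG replicate 2, 6 without CRL replicate 2, and 5 without CRL replicate 1 as without CRL replicate 3, and between TG and KO leaving out KO replicate 2 removed 6 of 10. With slide as a fixed block, 5, 5 and 1 of the calls stayed. These were the 5 between KO and CRL, Pdyn, Cpe, Pde1a, Oprd1 and Gnao1 between TG and CRL, and Chat between TG and KO (1.20, SE 0.32).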

How the data were processed

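RNA from the hippocampus of 3 KO, 3 CRL and 3 TG mice was hybridized to one-colour Agilent arrays, 1 per mouse. The authors deposited processed spot intensities of Feature Extraction 10.7.3.1, with background subtracted within each array and none normalized between arrays, per the file headers, on mm9. The deposited uncorrected intensities (mean spot signal, median local background) served an alternative. Genotype and replicate came from the sample labels, and slide from the array identifiers.

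The intensity was taken to log2 and the 75th percentile of the array subtracted. Control and outlier spots were dropped, and replicate spots averaged per probe. A probe was kept if 1 genotype or more had it well above background on each of its 3 arrays, which left 27994 of 39429 probes. No spot was saturated, and the number of arrays limits the precision. All 9 arrays entered a limma 3.58.1 fit (R 4.3.3) with genotype and eBayes. Benjamini-Hochberg adjustment was over all kept probes. The replicate correlation within a genotype was 0.983 to 0.992. The fit was tested on simulated data with set differences between TG and KO. Means over arrays leave out a gene with an outlier spot, so 21660 genes were compared over the 9 arrays.

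The members and all gene lists were chosen with earlier results of these data known. Named genes are the members, genes of each list called in any contrast or among the 3 highest on CRL replicate 3, the 10 genes most like the mean member profile and the 5 most like it without that array, and Atpif1. A result that this rule would name is not reported here. Isl1, Lhx8, Chrm4, Ace, Ttr, Prox1, C1ql2 and Wfs1, and Foxp1 and Ebf1 in a caption, were chosen once their values were known. Alternatives were another background correction and normalization, other filters, slide or replicate number as a block, fits of 2 genotypes, other eBayes options, averaging the probes of a gene, and each array left out in turn.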

Additional observations from a re-analysis of the deposited data

How the results depend on the processing

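The rise of the members on CRL replicate 3 (0.93) stayed between 0.82 and 0.99 under normexp, quantile normalization, both filters, the mean of all probes, the arrays of its slide or genotype alone, and each other array left out. That of the other striatal genes (0.41) was 0.29 with normexp and quantile normalization. Numbers of probes called for KO versus CRL, TG versus CRL and TG versus KO were 163, 568 and 562 with normexp and quantile normalization and 734, 4670 and 3187 with no filter on dim probes, and KO versus CRL had 180 with the filter for all arrays. With 1 array left out they ranged from 182 to 1019, 990 to 1961 and 617 to 1757. The libraries that moved them by over 1.5 times were, for KO versus CRL, CRL replicate 1 (182), CRL replicate 3 (1019) and KO replicate 1 (460), for TG versus CRL, TG replicate 2 (1961), and for TG versus KO, KO replicate 2 (617), TG replicate 2 (1757) and TG replicate 3 (1611). The cause was not tested.

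With slide as a fixed block, in which TG rests on TG replicate 3 alone because replicates 1 and 2 share a slide with no other genotype, TG versus CRL had 2245 probes called. In that fit CRL replicate 3, on the slide of KO replicates 2 and 3, also enters the TG versus KO estimates. The member median was then 0.056 for TG versus CRL and 0.60 for TG versus KO. The TG versus KO differences of Drd2 (0.13), Penk (0.46) and Tac1 (0.60) turned positive. Adora2a went from 0.20 to 1.09 and Rgs9 from 0.0075 to 0.81, and Pde10a reached 1.19. With 1 array left out, the TG versus KO difference ranged from -0.30 to 0.12 for Drd2, -0.015 to 0.31 for Adora2a, -0.17 to 0.078 for Tac1, -0.23 to 0.38 for Rgs9 and -0.21 to 0.49 for Pde10a, all with a change of sign and none called. Those of Ppp1r1b (0.020 to 0.48) and Penk (-0.85 to -0.15) kept their sign.

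Replicate numbers were not taken as pairs, since deviations of same-numbered arrays correlated from -0.17 to 0.12 over 9 pairs. With a replicate block, 333, 1181 and 1066 probes were called in the same order, and no member was called between TG and KO.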
